A study of Mus musculus with 8 samples.

Results

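At day 1 of differentiation in culture, the transcriptome of wild-type mouse embryonic stem (ES) cells was measured in 2 RNA sequencing libraries, labelled WT replicates 1 and 2, out of 8 libraries in the series. These libraries were taken by their genotype label, and levels were computed for the genes in their count tables. The cells are MK6, an ES cell line derived from the C57BL/6J mouse strain that carries no edit in these libraries; the other 6 libraries, from lines with Tbxt delE6/delE6, Tbxt Insert ASAY and Tbxt delE6/+ genotypes, were not compared here. According to the methods of the study, the cells were plated without feeder cells on gelatin, moved to N2/B27 medium without the cytokine LIF or the inhibitor pair 2i, and then given CHIR99021, an inhibitor of the kinase GSK3, to start differentiation towards a state that expresses Tbxt, the gene for the transcription factor Brachyury. The study prepared both libraries as biological replicates, and whether they came from 1 clone or from separate clones was not stated, so the spread given with each value is that between these 2 samples.

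ES cells are derived from the inner cell mass of the blastocyst and can form all tissues of the embryo. Their identity rests on a core of transcription factors, among them Oct4 (Pou5f1), Sox2 and Nanog, that are shared by successive states of pluripotency: a naive state, resembling the epiblast before implantation and marked by Klf and Esrrb family factors, and formative and primed states, resembling the epiblast after implantation and marked by Otx2, Fgf5 and the DNA methyltransferase Dnmt3b. Activation of the Wnt pathway, which CHIR99021 mimics by blocking the breakdown of beta-catenin, leads cells out of pluripotency towards the primitive streak, the source of mesoderm and endoderm.

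Levels are given in 2 units. CPM is the usual scaling of the reads on a gene to the reads on all genes, with library sizes scaled by TMM, and compares a gene between libraries. TPM is the usual scaling of reads per base of the merged exons of a gene to a fixed sum over all genes, and compares levels between genes. A gene was called detected at a mean of at least 1 TPM over both libraries. The tables held 28445952 reads on genes in replicate 1 and 27578711 in replicate 2, and reads fell on 22816 and 22695 of 48440 genes.

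The levels of 5 marker genes checked the label of the cells as mouse ES cells, and 4 of the 5 were high. Pou5f1 (chr17:35506018-35510772) had 8163 and 7575 reads in replicates 1 and 2, or 377 and 360.3 TPM (mean 369 ± 11.9 TPM, SD, n = 2). Dnmt3b, which places methyl groups on unmethylated DNA (chr2:153649450-153687730), had 6227 and 6323 reads, or 127 and 132 TPM (129.5 ± 4.08). For Sox2 (chr3:34650405-34652461), the partner of Oct4 on DNA, the values were 1972 and 1778 reads, or 99.5 and 92.4 TPM (96.0 ± 5.04). In both libraries Pou5f1 stood above Dnmt3b and Dnmt3b above Sox2, with no overlap between genes. Nanog (chr6:122707489-122714633), a factor that holds cells in the pluripotent state, had 1073 and 884 reads, or 49.7 and 42.2 TPM (45.9 ± 5.33). Otx2, the remaining marker, went against the other 4, and the labels name no state of pluripotency. This gene (chr14:48657677-48673819), a homeobox factor of the formative and primed epiblast, had 1 read in replicate 1 and 6 in replicate 2, or 0.0246 and 0.152 TPM, and was not detected. No read lay on its other strand in either library. Its position among all genes by TPM was 21160, against 342 for Pou5f1 and 1163 for Dnmt3b.

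The 250 bases before the start of the 5 marker genes are printed because the check of the label rests on these genes, together with those of Rplp0, one of the most abundant transcripts, and of Alb, the gene for the liver protein albumin, which had 0 reads in both libraries. They are from RefSeq on GRCm38.p6, written on the strand of the gene with CG dinucleotides in capitals, the sites that DNA methyltransferases modify in mammals. The windows are chr17:35505782-35506031, chr3:34649745-34649994, chr6:122707239-122707488 and chr2:153649199-153649448 on the plus strand, chr14:48667645-48667894 on the minus strand, and chr5:115559217-115559466 and chr5:90460620-90460869 on the plus strand.
Pou5f1: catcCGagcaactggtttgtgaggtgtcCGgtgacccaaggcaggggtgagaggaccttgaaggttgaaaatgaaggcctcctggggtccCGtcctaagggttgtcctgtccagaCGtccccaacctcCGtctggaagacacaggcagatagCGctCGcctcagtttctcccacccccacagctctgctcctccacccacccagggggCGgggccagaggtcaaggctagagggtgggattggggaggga
Sox2: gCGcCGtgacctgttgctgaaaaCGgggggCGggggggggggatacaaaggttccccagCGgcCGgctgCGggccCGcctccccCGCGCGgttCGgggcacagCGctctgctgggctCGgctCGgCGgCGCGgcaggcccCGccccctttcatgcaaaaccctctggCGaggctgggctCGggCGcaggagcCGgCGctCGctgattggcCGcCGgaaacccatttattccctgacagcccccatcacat
Nanog: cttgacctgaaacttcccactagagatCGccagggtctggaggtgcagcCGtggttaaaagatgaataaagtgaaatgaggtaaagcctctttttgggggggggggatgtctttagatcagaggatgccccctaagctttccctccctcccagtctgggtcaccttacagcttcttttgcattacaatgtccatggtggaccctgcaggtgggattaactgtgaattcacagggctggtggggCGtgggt
Dnmt3b: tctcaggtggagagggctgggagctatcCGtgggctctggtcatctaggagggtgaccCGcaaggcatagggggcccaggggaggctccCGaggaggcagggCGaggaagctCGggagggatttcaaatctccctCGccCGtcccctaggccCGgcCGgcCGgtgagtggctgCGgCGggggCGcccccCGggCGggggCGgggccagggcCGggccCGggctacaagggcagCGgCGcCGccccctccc
Otx2: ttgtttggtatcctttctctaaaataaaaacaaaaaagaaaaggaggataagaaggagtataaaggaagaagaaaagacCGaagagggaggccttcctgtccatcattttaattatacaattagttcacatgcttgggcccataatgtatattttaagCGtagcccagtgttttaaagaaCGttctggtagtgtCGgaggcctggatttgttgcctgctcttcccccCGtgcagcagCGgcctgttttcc
Rplp0: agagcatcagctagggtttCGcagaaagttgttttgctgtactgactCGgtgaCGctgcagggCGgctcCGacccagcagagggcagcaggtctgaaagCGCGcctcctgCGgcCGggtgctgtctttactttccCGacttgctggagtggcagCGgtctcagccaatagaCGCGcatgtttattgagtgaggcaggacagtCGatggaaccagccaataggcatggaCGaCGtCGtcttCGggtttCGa
Alb: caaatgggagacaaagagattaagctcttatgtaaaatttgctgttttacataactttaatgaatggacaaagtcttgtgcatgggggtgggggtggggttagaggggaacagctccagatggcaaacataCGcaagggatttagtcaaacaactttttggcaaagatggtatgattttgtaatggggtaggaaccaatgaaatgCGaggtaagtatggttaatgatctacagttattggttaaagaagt

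The number of CG dinucleotides in these windows was 27 in Sox2, 21 in Dnmt3b, 19 in Rplp0, 8 in Pou5f1, 6 in Otx2, 3 in Nanog and 2 in Alb, beside a median of 11 over the 16347 nuclear protein-coding genes with such a window. Nanog, at 45.9 TPM, and Alb, at 0 reads, thus had nearly the same number, and the order of CG number was not the order of levels in this small set. The RefSeq start used for Otx2 lies 6175 bases and that for Sox2 410 bases from the outermost start in the GENCODE annotation. For Pou5f1 the distance is 14 bases, and 14 bases of its window are annotated as exon. Windows were at hand for 75.4% of the nuclear protein-coding genes, with a lower share among silent genes (71.2% at 0 reads) than among those of at least 100 TPM (80.1%), which is below the 80% set for a summary, so sequence composition was not compared across levels.

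Of the 48058 genes with a length in the annotation, 15240 were detected, or 31.7%. Among nuclear protein-coding genes 12509 of 21670 were detected, or 57.7%, and these shares are the background for the gene lists that follow. The lists were chosen with earlier results of these data known, so the share of a list beside the background is descriptive only. The median level of a detected nuclear protein-coding gene was 17.8 TPM, and its 10th and 90th percentiles were 2.30 and 107.8 TPM. Levels of at least 10 TPM were reached by 8916 genes, of at least 100 TPM by 1541 and of at least 1000 TPM by 122. At the other end, 24084 genes (49.7% of those listed) had 0 reads in both libraries, 4940 nuclear protein-coding genes among them. Reads were spread over many genes: the most abundant 10 took 6.54% of reads in replicate 1 and 6.52% in replicate 2, the most abundant 100 took 21.4% and 21.2%, and 811 and 813 genes held the first 50% of reads.

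**Figure D1:**
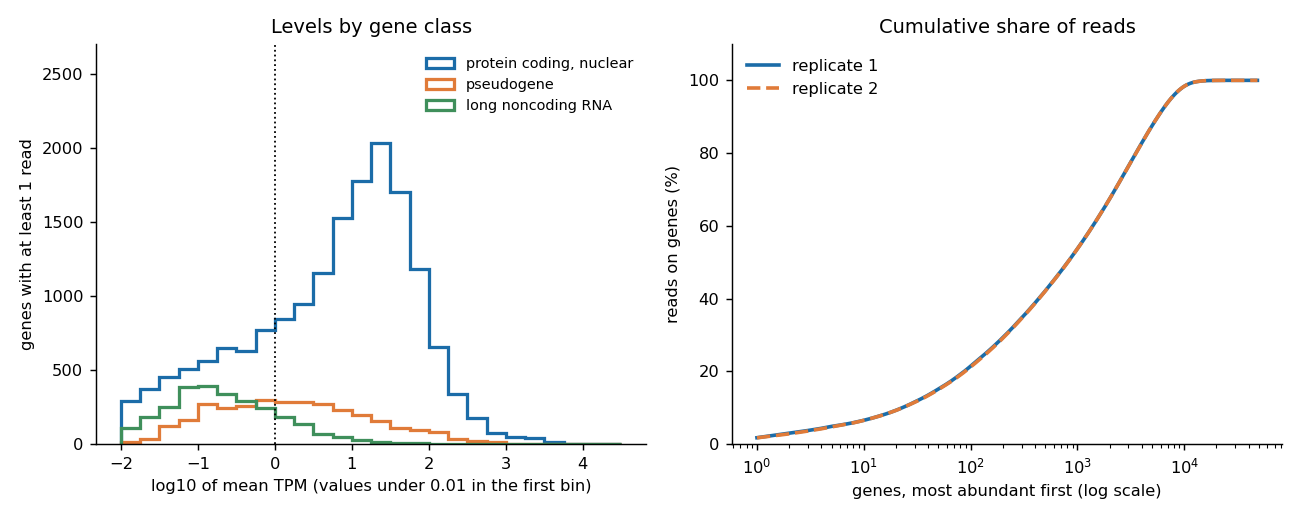
Left, the number of genes with at least 1 read by log10 of mean TPM for nuclear protein-coding genes, pseudogenes and long noncoding RNAs, with a dotted line at 1 TPM; right, the cumulative share of reads on genes against the number of genes, most abundant first, for each library. Protein-coding genes peak above 10 TPM, whereas long noncoding RNAs peak below 1 TPM, and the curves of both libraries lie on each other, with 811 and 813 genes holding the first 50% of reads.

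Eef1a1, the elongation factor that brings aminoacyl-tRNA to the ribosome, took more reads than any other gene, with 500033 and 476398 reads or 17426 ± 207 CPM (20629 ± 279 TPM). Ftl1, the ferritin light chain that stores iron, followed among nuclear genes with 210146 and 214170 reads (16686 ± 569 TPM). Eef2, which moves the ribosome along the mRNA, had 169397 and 168052 reads (5349 ± 80.6 TPM), and Hsp90ab1, a constitutive chaperone, 153901 and 145383 reads (5256 ± 103 TPM). The 15 genes with the most reads also included Pabpc1, the poly(A)-binding protein, Hsp90aa1, Actb, and the ribosomal protein genes Rpl4, Rps2, Rplp0, Rpsa and Rps3. By TPM, in which short mRNAs gain, Rplp1 (12889 ± 214 TPM), Rps15 (6325 ± 41.9), Rps3a1 (5719 ± 64.7) and Rpl36 (5674 ± 236) joined them.

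All 79 genes for proteins of the cytosolic ribosome were detected, with a median of 1817 TPM and a summed share of 17.8% and 17.5% of TPM, or 10.1% and 9.90% of reads, in replicates 1 and 2. The ribosome holds most of these proteins in equal numbers. Levels above 10 TPM were found for 78 of 79 genes, but some lay far under the median, such as Rpl13a at 138 ± 9.02 TPM and Rpl24 at 1.57 ± 1.05 TPM, from 23 and 8 reads. These genes share 35.4% and 47.0% of their exon bases with another annotated gene on the same strand (Gm45713 and Gm28037), where the authors' counting assigns a read to neither gene, and reads that match several places in the genome were also not counted. The part of either in these low values was not tested, and levels of ribosomal protein genes, which have many pseudogene copies, are therefore uncertain. The 77 genes of the mitochondrial ribosome had a median of 47.5 TPM with 76 detected, and the 39 proteasome genes 144 TPM with 37 detected. The 9 genes of the chaperonin family that are annotated as protein coding had a median of 445 TPM with 8 detected. Cct6a, of another annotated type, is not among these 9.

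The mitochondrial genome took 2.48% of reads in replicate 1 and 2.20% in replicate 2 (2.34% ± 0.200). mt-Co1, the catalytic subunit of cytochrome c oxidase, was the second gene by reads in both units, with 352871 and 300446 reads or 23715 and 20792 TPM (22254 ± 2067). It was followed by mt-Cytb of complex III (7517 ± 762 TPM) and mt-Nd1 of complex I (6651 ± 495 TPM). All 13 mitochondrial protein genes were detected, from mt-Co1 down to mt-Nd4l at 97.8 ± 11.0 TPM. mt-Nd6, the one protein gene that lies on the other strand of the mitochondrial genome, had 498 and 686 reads, and was, with mt-Nd3, one of 2 of the 13 that had more reads in replicate 2 than in replicate 1. The ribosomal RNAs mt-Rnr2 and mt-Rnr1 had 2022 ± 236 and 1034 ± 82.3 TPM in these poly(A)-selected libraries.

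By class, nuclear protein-coding genes took 95.4% ± 0.146 of reads, pseudogenes 1.25% ± 0.0492, long noncoding RNAs 0.902% ± 0.0946 and small and structural RNAs 0.0852% ± 0.00986. Counted without regard to strand, the last 2 shares were 0.561% and 0.207%. Among long noncoding RNAs, Gm42418 alone had 75432 stranded reads in replicate 1 and 114793 in replicate 2, and 0 unstranded reads in either. The share of this class and its change with strand thus depend strongly on 1 gene. Pseudogenes made up 1774 of the 15240 detected genes, that is 17.8% of the 9985 listed, while 512 of 7250 long noncoding RNA genes (7.06%) were detected. The highest processed pseudogenes were Gm10736 (4731 ± 11.1 TPM over 78 bases of exon), Gm9800 (1119 ± 0.994) and Gm13456 (841 ± 108). The highest unprocessed ones were Gm13340 (844 ± 105) and Gm13341 (826 ± 98.1). Whether reads on pseudogenes came from them or from similar genes elsewhere in the genome was not tested. Among lincRNAs the highest were Gm42418, Gm26917 (1004 ± 13.8 TPM) and Gm10076 (860 ± 25.5), then Malat1, a nuclear RNA of speckles (219 ± 35.1), Epb41l4aos (142 ± 2.25), the snoRNA host Snhg6 (134 ± 3.40), Lncenc1, a lincRNA of naive ES cells (70.9 ± 0.451), and Rbakdn (59.7 ± 2.53). Among genes of the type processed transcript were 2410006H16Rik (1566 ± 93.7 TPM), Gas5 (229 ± 0.579), Snhg8 (128.5 ± 8.34), Snhg1 (103 ± 1.68) and Platr14 (79.1 ± 2.89), a transcript associated with pluripotency, together with Ifi30 (487 ± 15.5) and the chaperonin gene Cct6a (441 ± 8.87), which the annotation release used here places in this type.

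A pair of abundant noncoding genes stood apart. Gm42418 (chr17:39846958-39848788) had 75432 reads in replicate 1 and 114793 in replicate 2 (5490.4 ± 1715 TPM), a difference of 0.65 on the log2 CPM scale, and its exon overlaps CT010467.1, a gene annotated as ribosomal RNA on the other strand. Gm23935 (chr16:11144125-11144181), annotated as a miRNA gene, was first by TPM, with 27922 and 34997 TPM, but only at position 212 by CPM, with 15328 and 18657 reads. Its annotated exon is 57 bases long, so that its TPM depends on this short length. Genes with under 200 bases of exon held 0.108% and 0.121% of reads but 4.48% and 5.21% of TPM, and leaving them out raised every TPM of the other genes by the same factor of 1.05, an alternative added after the values were seen.

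All 15 genes of the core pluripotency list were detected, each above 10 TPM, with a median of 96.0 TPM. The background share is 57.7%. Dppa5a, a small RNA-binding protein gene found in pluripotent cells, was highest by TPM with 15534 and 14188 reads, or 2606 and 2451 TPM (2528 ± 109.6), and its position among all genes was 39 by TPM but 254 by CPM. Cdh1, the epithelial cadherin that joins ES cells to each other, had 483 and 514 TPM (498 ± 21.9), and the adhesion molecule Epcam 339 and 347 TPM (343 ± 5.75). Utf1, a chromatin-bound factor of undifferentiated cells, was at 269 and 303 TPM (286 ± 24.4), and Lin28a, which blocks processing of the let-7 miRNAs, at 215 and 205 TPM (209.9 ± 6.56). The lower members were Sall4 (71.1 ± 0.813 TPM), Trim71 (63.4 ± 3.04), the Nodal co-receptor Tdgf1 (51.0 ± 1.26), Nanog, L1td1 (40.4 ± 2.22), Fbxo15 (39.7 ± 1.51) and Dppa2 (27.8 ± 1.00). In the order by TPM, 13 of the 14 pairs of neighbours had ranges that did not overlap between the libraries. The exception was L1td1 and Fbxo15. These ranges hold the spread between libraries only, and the order also depends on the unit and the exon length used. By CPM, Cdh1 (772) lay above Dppa5a (530), and with longest transcripts the median of the list was 73.1 TPM.

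Of the 15 naive pluripotency genes 13 were detected, 9 of them at 10 TPM or more, with a median of 16.8 TPM. Dppa3, a maternal factor that limits DNA methylation, was highest at 123 and 125 TPM (124 ± 1.82). Klf2, a Kruppel-like factor of the naive network, had 1003 and 917 reads, or 56.4 and 53.1 TPM (54.7 ± 2.34), and Zfp42 (Rex1), a zinc-finger gene used to report the naive state, 44.4 ± 0.823 TPM. Esrrb, an orphan nuclear receptor, had 27.9 and 28.0 TPM (28.0 ± 0.0492) and Tfcp2l1, a factor downstream of LIF, 27.8 and 27.3 TPM (27.5 ± 0.369). Tbx3 (26.2 ± 1.82), Klf5 (24.3 ± 0.661), Fgf4 (16.8 ± 2.08) and Klf4 (12.9 ± 0.881) followed, and Nr0b1, Gbx2, Nr5a2 and Tcl1 lay between 7.70 and 1.85 TPM. Prdm14, a repressor of the exit from naive pluripotency, had 18 and 27 reads and 0.927 ± 0.281 TPM, just under the limit. Spic had 1 and 0 reads.

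The formative and primed list was split. Of its 16 genes 13 were detected, 10 at 10 TPM or more, with medians of 18.5 and 20.3 TPM in replicates 1 and 2. Cldn6, a tight-junction claudin of early epithelia, had 338 and 366 TPM (352 ± 19.7), and Dnmt3b, given above, was second. Sox4 (65.0 ± 5.12 TPM), the ERK-responsive factor Etv5 (35.8 ± 2.47), Zic2 (32.8 ± 0.354), Dnmt3a (22.5 ± 0.196), Etv4 (21.4 ± 3.13) and Zic5 (18.6 ± 1.15) came next. Pou3f1 (Oct6), a POU factor of the epiblast after implantation, had 655 and 590 reads, or 17.7 and 16.4 TPM (17.0 ± 0.905). Not detected, beside Otx2, were Foxd3, with 22 and 20 reads (0.952 ± 0.0444 TPM), and Fgf5, a ligand widely used to mark the primed epiblast, with 12 and 3 reads (0.498 and 0.128 TPM). Otx2 and Fgf5 were thus lower in each library than 14 of the 15 naive genes were in either, Spic being the exception, while Dnmt3b was higher than every naive gene. With 2 libraries and no earlier or later time point, these levels describe the cells at 1 time only.

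**Figure D2:**
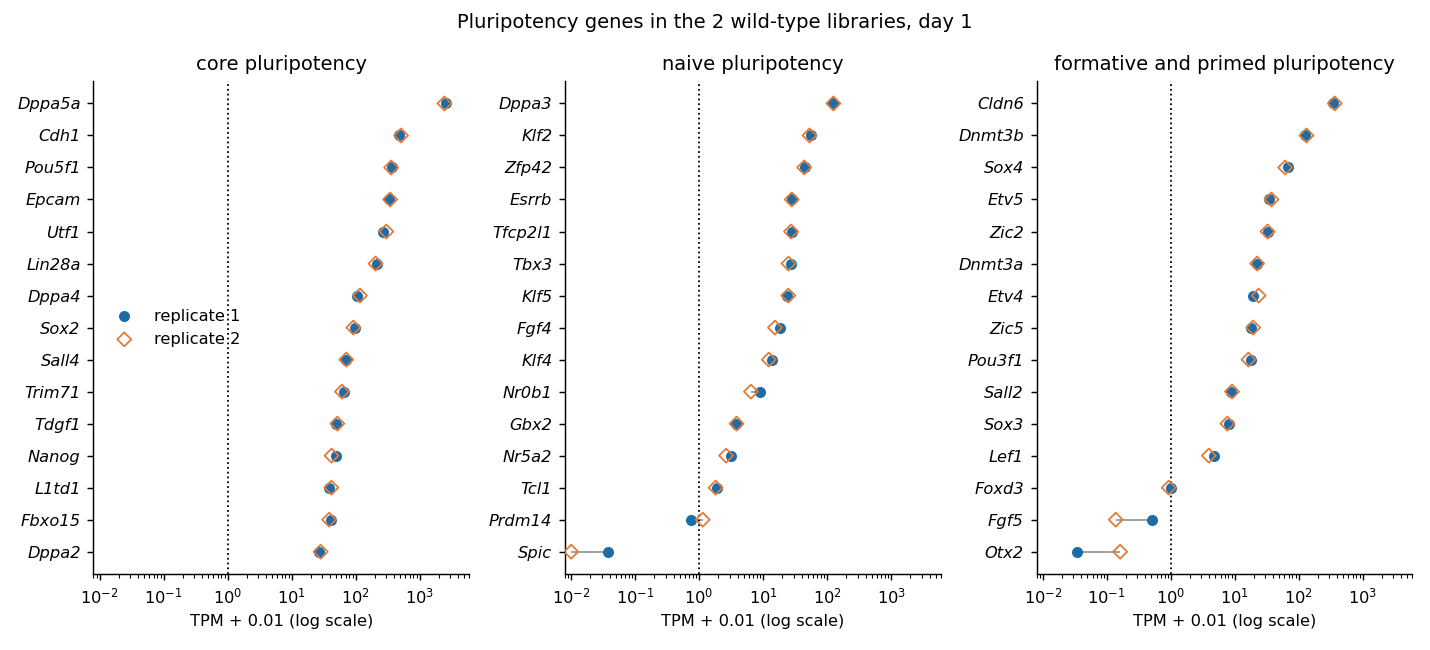
Levels of the genes of the core and naive lists and of 15 of the 16 in the formative and primed list in replicate 1 (filled circles) and replicate 2 (open diamonds), as TPM + 0.01 on a log axis, with a dotted line at 1 TPM. All 15 core genes lie right of the line in both libraries, and Otx2 (0.0246 and 0.152 TPM), Fgf5 (0.498 and 0.128 TPM) and Spic (1 and 0 reads) lie left of it.

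The enzymes that write, keep and remove DNA methylation were all detected, 9 of 9, with a median of 58.8 TPM. Dnmt3l, the cofactor without catalytic activity that helps the de novo enzymes, was highest with 247 and 278 TPM (262 ± 22.0), and Uhrf1, which brings the maintenance enzyme to newly replicated DNA, had 242 ± 7.58 TPM. These ranges overlapped. Dnmt1, the maintenance enzyme, had 100.3 ± 3.41 TPM, between Dnmt3b and the glycosylase Tdg (58.8 ± 0.234). Of the demethylating dioxygenases Tet1 was at 23.6 ± 0.282 TPM, and Tet3 (4.27 ± 0.438) and Tet2 (3.31 ± 0.294) were lower, without overlap between any of the 3.

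Germ cell genes were among the higher lists, with 9 of 10 detected and a median of 28.4 TPM. Besides Dppa3, which is also in the naive list, Tex19.1, which acts on retrotransposons in germ cells, had 1401 and 1365 reads, or 77.7 and 78.0 TPM (77.8 ± 0.179). Mael, of the piRNA pathway, was at 69.4 and 61.5 TPM (65.5 ± 5.61), Sycp3, a protein of the meiotic synaptonemal complex, at 43.9 and 49.2 TPM (46.6 ± 3.73), and Ddx4 (Vasa), an RNA helicase of germ cells, at 34.3 and 37.6 TPM (36.0 ± 2.28). The RNA-binding protein gene Dazl had 16.3 and 17.7 TPM (17.0 ± 1.03). By contrast Prdm1 (Blimp1), which specifies primordial germ cells, had 14 and 25 reads (0.370 ± 0.155 TPM), and Nanos3 12 and 11 reads (1.31 ± 0.0535 TPM). Of 10 genes named for cells resembling the 2-cell embryo, 9 were found by symbol and Dux was not. Among the 9, which include Zscan4a, annotated as a pseudogene, 8 were detected, all below 10 TPM. Zscan4d was highest at 5.22 ± 0.469 TPM. Reads that match several places in the genome were not counted, and their part in these levels was not tested. In bulk RNA, few cells with a high level and many cells with a low level cannot be told apart, here or in the lists below.

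Of the primitive streak genes 7 of 15 were detected (46.7%, against the background of 57.7%), with a median of 0.542 TPM over the list. Tbxt, listed under its older symbol T (chr17:8434423-8442496) and the gene edited in the other lines, had 47 reads in replicate 1 and 42 in replicate 2, or 2.11 and 1.94 TPM (2.02 ± 0.119), which puts it at position 13472 by TPM. The other 6 detected genes of the list had higher levels. The highest 4 were Nodal, the TGF-beta family ligand that patterns the epiblast (24.8 and 28.2 TPM, 26.5 ± 2.36), Cdx1, a caudal homeobox gene that responds to Wnt (14.7 and 15.3 TPM, 15.0 ± 0.439), Sp5, a zinc-finger target of Wnt (13.7 and 13.3 TPM, 13.5 ± 0.288), and Eomes, a T-box factor of mesendoderm (9.15 and 10.2 TPM, 9.68 ± 0.756). Wnt3, the ligand that starts the streak, followed at 3.24 and 3.30 TPM and overlapped with Fgf8 (3.31 and 2.69 TPM). The other 8 genes were not detected, from Gsc (0.542 ± 0.187 TPM) and Mesp1 (0.371 ± 0.0507) to Foxa2, Cdx2, Mixl1 (7 and 5 reads), Wnt3a, Evx1 and Lhx1 (4 and 2 reads).

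Genes of the germ layers and the trophoblast were mostly low, and the share detected lay within 2 genes of the background share in each list but endoderm. Mesoderm had 7 of 15 genes detected (46.7%), only Tcf15 above 10 TPM (12.0 ± 0.0202), with Twist1 at 9.36 ± 0.514 TPM, Kdr at 10 and 10 reads and the muscle gene Myf5 at 0 reads in both libraries. Endoderm had 4 of 15 (26.7%), led by Gata4 (6.85 ± 0.240 TPM) and Hhex (4.63 ± 0.567), and Alb, Cer1 and Ttr had 0 reads in both libraries. Sox17, a defining endoderm factor, had 27 and 15 reads (0.462 ± 0.178 TPM). Neural ectoderm had 7 of 15 (46.7%), with the intermediate filament gene Nes at 41.2 ± 1.36 TPM and the tubulin gene Tubb3 at 35.2 ± 0.228 TPM, while Sox1, the earliest factor of the neural plate, was at 3.47 ± 0.406 TPM and Pax6 at 0.629 ± 0.153 TPM. Surface ectoderm had 5 of 10, and its highest genes were the simple-epithelium keratins Krt18 (353 and 384 TPM, 369 ± 21.6) and Krt8 (264 and 278 TPM, 271 ± 9.94), next to Krt5, Krt14 and Trp63 of the epidermis at under 1 TPM. Trophoblast had 5 of 10, with Tfap2c highest (11.0 ± 0.218 TPM), Cdx2 at 3 and 9 reads, Elf5 at 2 and 1 reads and Tpbpa at 0. Some genes stand in more than 1 of these lists.

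**Figure D3:**
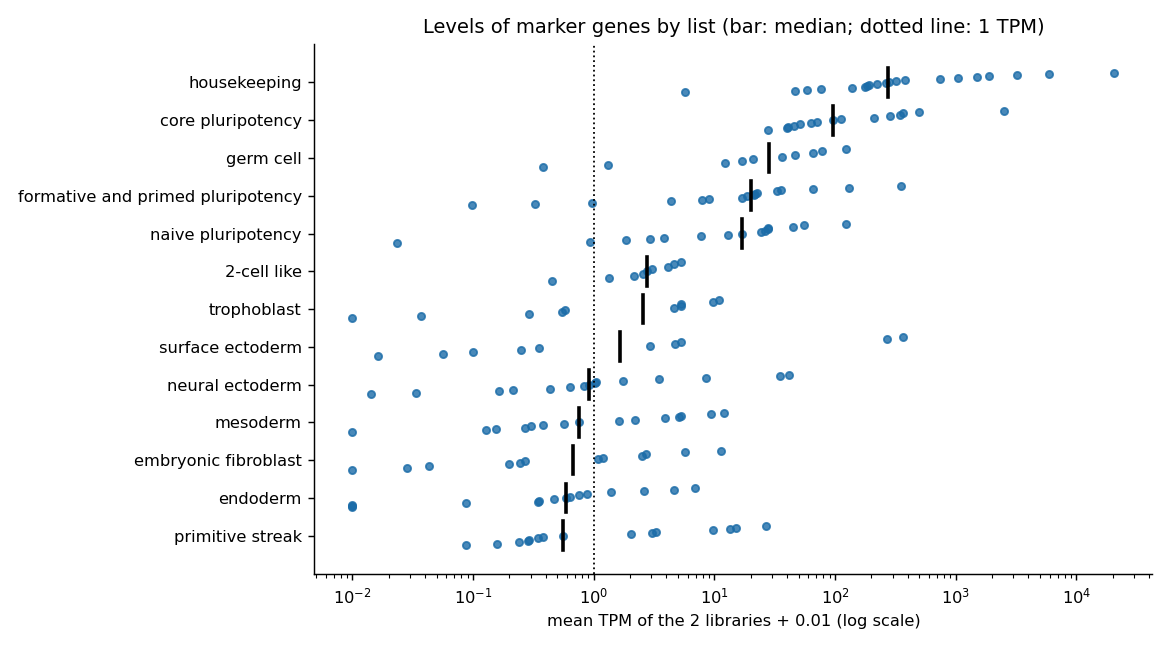
Mean TPM + 0.01 of each gene in 13 lists on a log axis, each point a gene and each bar the median of its list, with a dotted line at 1 TPM. Medians run from 272 TPM for housekeeping genes and 96.0 TPM for core pluripotency genes to 0.542 TPM for primitive streak genes.

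MK6 cells are also kept on mouse embryonic fibroblasts for other purposes, so fibroblast genes were listed. Of 12 such genes 6 were detected and 1 was above 10 TPM, Fbln2 (11.2 ± 0.735), with the collagens Col1a1 at 5.71 ± 0.731 TPM, Col1a2 at 1.18 ± 0.0425 TPM and Col3a1 at 0.188 ± 0.0115 TPM, and S100a4 at 0 reads. The summed level of the list was 23.7 TPM in replicate 1 and 26.5 TPM in replicate 2, and its part in other values was not tested. Genes of the Y chromosome were also detected: Ddx3y was at 33.6 ± 0.365 TPM, Eif2s3y at 25.7 ± 0.684 and Uty at 5.33 ± 0.0647, and Xist, the RNA that coats the inactive X chromosome, had 21 and 14 reads (0.102 ± 0.0269 TPM).

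Wnt signalling, the pathway that the inhibitor acts on, had 13 of 13 transducer genes detected, with a median of 47.6 TPM. Ctnnb1 (beta-catenin) was at 388 and 396 TPM (392 ± 5.96), Gsk3a at 118 ± 0.879 and Gsk3b, the other target of the inhibitor, at 25.5 ± 0.0819 TPM. Among the nuclear partners of beta-catenin Tcf7 (102 and 104 TPM, 103 ± 0.772) and the repressor Tcf7l1 (47.6 ± 0.967) were well above Lef1 (4.35 ± 0.588) and Tcf7l2 (2.09 ± 0.323). Of 18 ligands and receptors 15 were detected, the receptors Fzd7 (50.2 ± 1.42 TPM) and Fzd2 (49.3 ± 1.57) and the co-receptor Lrp5 (46.1 ± 2.58) highest, and Wnt8a the highest ligand (16.6 ± 1.53). Wnt5a had 3 and 6 reads. Of 14 direct targets 12 were detected, with a median of 8.10 TPM: Axin2, a feedback inhibitor, was at 16.4 and 17.0 TPM (16.7 ± 0.454), the ubiquitin ligase Znrf3 at 13.5 ± 0.220, Nkd1 at 7.61 ± 0.218 and Notum at 7.31 ± 0.523. At the low end Lgr5, the R-spondin receptor, had 11 and 8 reads, and Dkk1, a secreted Wnt inhibitor, 0 and 0.

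Nodal signalling was detected throughout, 14 of 14 genes, with a median of 20.7 TPM, including the ligand Gdf3 (43.1 ± 3.54 TPM), the inhibitors Lefty1 (32.2 ± 2.51) and Lefty2 (15.9 ± 1.76), and Smad4 (85.2 ± 3.07). In the BMP list 12 of 13 were detected with a median of 4.75 TPM. The receptor Bmpr1a was at 61.3 ± 2.14 TPM and Bmp7 at 25.7 ± 1.34, whereas Bmp4 was under the limit (0.938 ± 0.0857), and the target genes Id1 (1.68 ± 0.0990), Id2 (2.57 ± 0.267) and Id3 (1.33 ± 0.402) were low. Of the FGF list 14 of 16 were detected with a median of 10.2 TPM, Fgfr1 being the highest receptor (29.5 ± 0.905 TPM) and Fgf4 the highest ligand, and the feedback genes Spry2 (37.1 ± 3.51) and Dusp6 (31.5 ± 0.418) above both. All 8 LIF pathway genes were detected, from Jak1 (63.0 ± 0.686 TPM) through Stat3 (25.4 ± 0.349), Lif itself (15.0 ± 0.397) and its target Socs3 (10.1 ± 0.796) to the receptor Lifr (2.69 ± 0.0212).

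**Figure D4:**
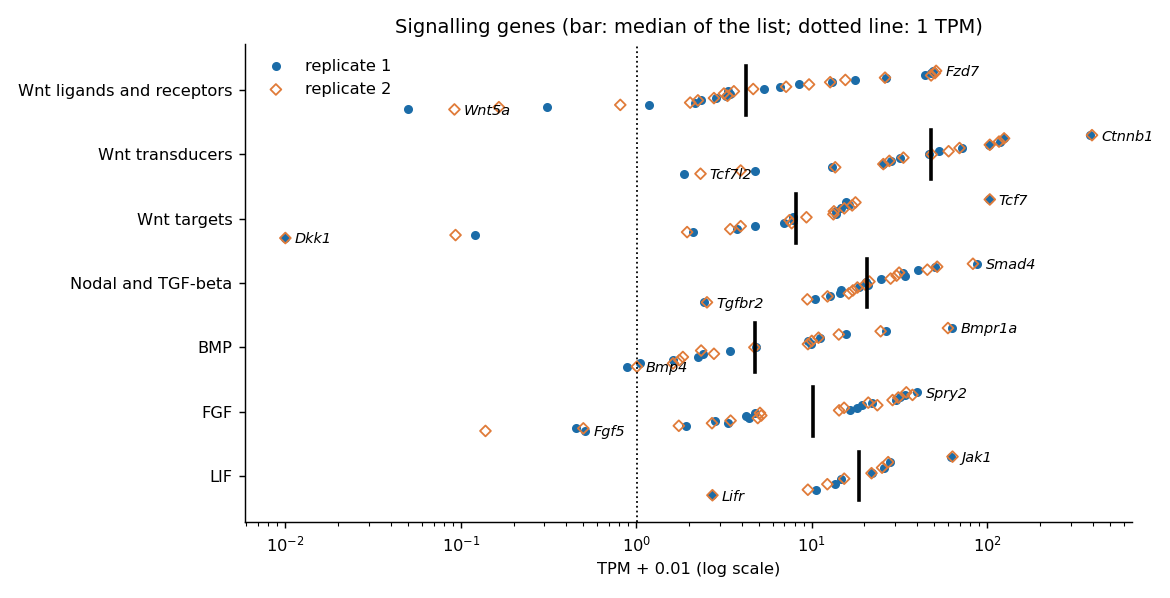
Level of each gene of 7 signalling lists in replicate 1 (filled circles) and replicate 2 (open diamonds), as TPM + 0.01 on a log axis, with the highest and the lowest gene of each list named, a bar at each median and a dotted line at 1 TPM. Medians are highest for Wnt transducers (47.6 TPM) and lowest for Wnt ligands and receptors (4.22 TPM) and BMP genes (4.75 TPM), and Dkk1 lies at 0.

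The genes most used for normalization were all detected, 20 of 20, but their levels ran from Eef1a1 at 20629 TPM to Tbp, the TATA-binding protein, at 5.69 ± 0.101 TPM. Actb (3196 ± 3.30 TPM) and Gapdh (1883 ± 53.3 TPM) lay between. In this list 19 of 19 pairs of neighbours had ranges that did not overlap. All 16 glycolysis genes were above 10 TPM with a median of 363 TPM, led by Gapdh and Aldoa (1814 ± 38.4), and of the hexokinases Hk2 (85.5 ± 2.40) stood above Hk1 (24.8 ± 0.259). The cell cycle list had 18 of 18 detected with a median of 51.7 TPM. Cdk4 was highest (397 ± 1.98), the mitotic cyclins Ccnb2 (239.9 ± 10.7) and Ccnb1 (176 ± 1.21) were far above the D-type cyclins Ccnd3 (47.8 ± 0.200), Ccnd1 (16.7 ± 1.44) and Ccnd2 (12.4 ± 0.369), and the inhibitors Cdkn1a (p21) and Cdkn2a, the latter encoding p16 and Arf, had 196 ± 4.12 and 67.1 ± 0.518 TPM.

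The libraries differed little. The common biological coefficient of variation by edgeR, the spread beyond counting noise, was 3.11% over 15894 genes, and by level it ran from 7.64% for genes under 1 CPM to 2.59% for those of 100 to 1000 CPM. Their counts were not copies of each other, since the chi-square statistic of the difference was 3.27 times its degrees of freedom over 17890 genes. Among 12742 genes of at least 2 CPM the median absolute difference was 0.0653 on the log2 scale, 98 genes differed by more than 0.5 and 12 by more than 1, 5 of them higher in replicate 1 and 7 in replicate 2.

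The 12 genes fell into 3 kinds. Pseudogenes make up 4 of them, with reads of 193 and 17 for Gm7336, 1593 and 295 for Gm1821, 81 and 361 for Gm12960 and 168 and 61 for Rpsa-ps2. Another 6 lie opposite abundant genes and had at least 1000 reads on the strand not used for the levels: Gm45552 (46 and 149 reads), 1700022I11Rik (41 and 120), Gm10252 (87 and 222, opposite Ftl1), Gm20721 (39 and 88), 9830144P21Rik (35 and 77) and Snx22 (41 and 85). All 6 were higher in replicate 2. Counts for the other strand include reads of the abundant overlapping genes. They made up 4.78% of the summed counts for both strands in replicate 2 and 4.18% in replicate 1. Any link to the 6 genes was not tested. The remaining 2 are Fosb, an immediate early gene of the AP-1 family (88 and 37 reads), and Zfp993 (191 and 90 reads). With 2 samples of 1 group, no test was made of any of these differences.

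**Figure D5:**
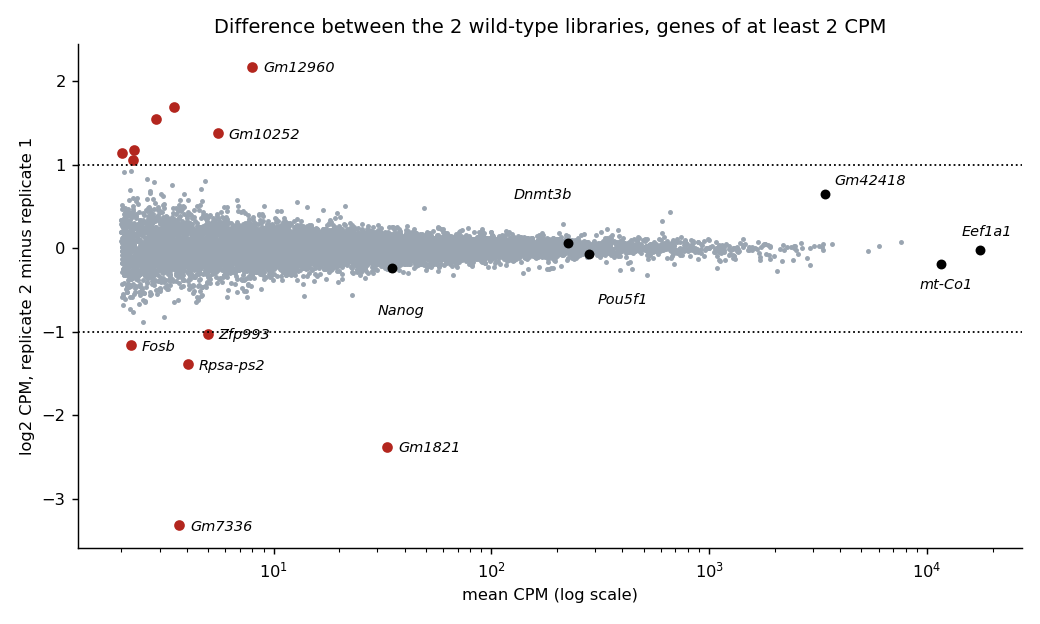
Difference in log2 CPM, replicate 2 minus replicate 1, against mean CPM (log axis) for the 12742 genes of at least 2 CPM; red points differ by more than 1 in either direction (dotted lines), and black points are named abundant or marker genes. Red points number 12, from Gm7336 at -3.32 to Gm12960 at 2.17, and Gm42418 lies at 0.65 among genes of over 1000 CPM.

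Strand mattered to the levels of single genes. Against counts without regard to strand, the stranded counts were more than 1.5 times as high in both libraries for 577 of the 15240 detected genes, since a read in a stretch shared with a gene on the other strand is assigned only when strand is known. For 24 detected genes the unstranded counts were more than 1.5 times the stranded counts in both libraries. Pou5f1 was 1 of the 577 genes with higher stranded counts: unstranded counts held 45.5% and 46.3% of its stranded reads, and Gm19553 lies opposite. For Ftl1 the shares were 25.9% and 24.4% (opposite Gm10252), for Rpl23a 16.8% and 16.3% (opposite Tlcd1), and for Snrpf, a core spliceosome protein gene, 0.227% and 0.522% (opposite Ccdc38).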

How the data were processed

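RNA of day 1 differentiated wild-type MK6 cells was measured in 2 poly(A)-selected, strand-specific libraries, grouped by the genotype in their labels. The authors aligned the reads with STAR 2.7.2a to the mm10 mouse genome and deposited raw read counts per gene in 3 columns, without regard to strand and for each strand. The column for the strand opposite the first read was used, with no further filter by the authors stated. The counting annotation's release is not given in the sources used here. Exon lengths and gene types were taken from GENCODE M21, which held 48058 of the 48440 gene IDs, and the other 382 held 0.0156% and 0.0150% of reads. In replicate 2, 72.1% of 38236477 read pairs fell on genes, 15.4% were unmapped, 6.05% matched several places and 1.67% were ambiguous between genes; these lines were not at hand for replicate 1. Reads on genes numbered 27578711 to 28445952 per library, and an SD over 2 libraries is imprecise.

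CPM used TMM factors (edgeR 4.0.16, R 4.3.3), and TPM used merged exon lengths (pandas 2.3.3, numpy 2.4.6, Python 3.11.15). Replicate spread was estimated with edgeR from an intercept-only fit, a step tested on simulated data. With 1 group of 2 samples no test was made. Genes named were the members of gene lists, the 15 most abundant genes by CPM and by TPM, the 8 highest of each noncoding type with at least 0.1% of reads, and the 10 with the largest difference between libraries; single members of gene families, genes with low unstranded counts and the other 2 genes that differed by over 1 (log2) were named after their values were seen. The members and lists were chosen with earlier results of these data known. Start sites and their upstream sequences were from RefSeq (GRCm38.p6), matched by symbol. Alternatives were unstranded counts, longest transcripts, RPKM, other limits of detection, DESeq2 1.42.0, omission of mitochondrial genes or of a replicate, and, added after the data were seen, omission of genes under 200 bases. The 6 libraries of other genotypes were not analysed here, and a few genes that are members of the lists and families counted are not reported here by name.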

Additional observations from a re-analysis of the deposited data

Results flagged for a closer look

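The column for the strand that the levels do not use held 1240308 reads in replicate 1 and 1384091 in replicate 2. In it 153 genes had at least 1000 reads, and more than on their own strand, in both libraries, and 151 of them overlap a gene on the opposite strand. These 153 genes held 51.0% and 46.7% of the column. The largest was Gm10252, opposite Ftl1, with 156863 reads in replicate 1 and 163527 in replicate 2, against 87 and 222 on its own strand and 210146 and 214170 on the strand of Ftl1. Others were CT010467.1, annotated as ribosomal RNA opposite Gm42418 (43998 and 66587 reads), Tlcd1 opposite Rpl23a (27898 and 26855) and mt-Nd6 opposite mt-Nd5 (21778 and 19055). The column was noted because it was not used for the levels. Its reads can still be counted in the levels, for the gene on the opposite strand. Without regard to strand, Ftl1 had 54490 reads in replicate 1 and 52238 in replicate 2. No control library exists for the column, and the part of such shared reads in it was not tested.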

How the results depend on the processing

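No paired analysis was possible because the levels come from no test and from 1 group only. With unstranded counts the share of reads on the 10 most abundant genes was 6.25% (6.53% as reported), that of long noncoding RNAs 0.561% (0.902%) and that of small and structural RNAs 0.207% (0.0852%), the median of the 24 list medians 9.54 TPM (9.14), Pou5f1 133 CPM (281) and Dnmt3b 232 CPM (224). Without mitochondrial genes the 10 most abundant genes held 5.81% and nuclear protein-coding genes 97.7% of reads (95.4%). The median of list medians was 8.33 with longest transcripts, 3.10 as RPKM, and 9.60 with genes under 200 bases left out, which also gave Pou5f1 387 TPM and Dnmt3b 136 TPM. Without either replicate it ran from 9.12 to 9.23. For single lists, the median with longest transcripts was 0.761 to 1.44 times the reported one, a wider range than the median of medians shows. Genes with a log2 difference of over 1 between the libraries numbered 29 at 1 CPM or more and 3 at 5 CPM or more, against 12 at 2 CPM. The median of the gene-wise estimates of DESeq2 gave a biological coefficient of variation of 0.01%, the lowest it can give. The 3.11% by edgeR is a common value over all genes, so these are unlike measures. Detected genes numbered 13925 with at least 1 CPM in both libraries and 15438 with unstranded counts, against 15240. A limit of 5 TPM left 193 of the 255 detected list members and moved the count of 11 of 24 lists by over 1.5 times. Depth limits genes of a few reads, such as Otx2 and Fgf5.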

Other observations

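Gene families outside the lists of cell types were also counted, beside the background share of 57.7% detected among nuclear protein-coding genes. Of 39 Hox genes, which set position along the body axis, 18 were detected (46.2%), 3 of them at 10 TPM or more, while Hoxd3 had 0 reads in both libraries. Of 81 histone genes 52 were detected (64.2%) in these poly(A)-selected libraries, and 7 had 0 reads. The highest were the replacement variants H3f3b (881 TPM), H2afz (551 TPM) and H3f3a (309 TPM), followed by Hist1h2ao (225 TPM). None of 1103 olfactory receptor genes was detected, and 1075 had 0 reads in both libraries.

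By chromosome, the share of protein-coding genes that were detected ran among autosomes from 47.6% on chromosome 14 to 70.4% on chromosome 12. It was 48.8% on the X chromosome (463 of 948) and 3.28% on the Y chromosome (6 of 183).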
